A study of Homo sapiens with 6 samples.

Results

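The lysosomal, proton pump and autophagy genes of LNCaP-AI cells were followed after silencing of METTL1. The set held 47 genes, chosen by name, and all 47 were found among the 20308 genes of the tables by their Ensembl identifiers. They fall into 5 roles: 3 transcription factors of the MiT/TFE family, 6 membrane proteins, 12 lumen proteins (hydrolases, their activators and a sterol carrier), 14 subunits of the proton pump and 12 autophagy genes. No measured value was used to choose them, but earlier results of these data were known when they were chosen.

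LNCaP-AI is a human prostate cancer line maintained under androgen deprivation that stands for castration-resistant disease (CRPC). RNA sequencing compared 3 libraries of cells with a lentiviral hairpin against METTL1 (shMETTL1, METTL1 knockdown) with 3 libraries of cells with a scrambled hairpin (shscramble, control), and androgen deprivation therapy is the treatment given for both groups. METTL1 is the methyltransferase of a complex that writes N7-methylguanosine into RNA. The comparison asks which transcripts change when METTL1 is silenced, and the labels do not say whether a group is 1 clone or whether its 3 libraries came from separate cultures.

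Lysosomes degrade proteins, lipids and sugars with acid hydrolases, and the vacuolar proton pump (v-ATPase) keeps their lumen acid through a membrane sector, V0, that carries protons, and a cytosolic sector, V1, that burns ATP. Autophagy delivers cytoplasm to them in double-membraned vesicles that carry lipid-anchored proteins of the ATG8 family. TFEB, TFE3 and MITF are known to bind E-boxes of the letters CACGTG, often as the longer CLEAR element, in the promoters of many of these genes, and TFEB and TFE3 are controlled mainly by their movement into the nucleus, which RNA levels do not show.

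Promoters of the members were read from RefSeq (GRCh38.p14) as 250 bases before to 50 bases after 1 start site per gene, and 37 of the 47 members had an entry. The letters CACGTG stood in 10 of these 37 promoters (27%), against 7.43% of 27305 promoters in the table and 10.5% of the 9125 promoters of genes tested here. The longer TCACGTG, sought on both strands and always overlapping CACGTG, stood in 9 of 37 (24.3%). Its share was 3.82% of all promoters and 6.1% of those of genes tested. GTCACGTG, the core of the CLEAR element, stood in 8 of 37 (21.6%), against 2.53% of all promoters and 4.67% of those of genes tested. The windows around the E-boxes of the 5 members with 2 or more are printed to show the letters from 15 bases before the first to 15 bases after the last, 5′ to 3′ along the gene, with each CACGTG in capitals.

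LAMP1, chr13:113297032-113297258, plus strand: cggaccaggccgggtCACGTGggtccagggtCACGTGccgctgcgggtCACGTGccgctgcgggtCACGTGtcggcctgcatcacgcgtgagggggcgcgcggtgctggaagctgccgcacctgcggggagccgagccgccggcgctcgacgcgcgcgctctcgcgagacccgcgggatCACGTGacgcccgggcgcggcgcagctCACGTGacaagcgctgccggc
ATP6V0B, chr1:43974888-43974941, plus strand: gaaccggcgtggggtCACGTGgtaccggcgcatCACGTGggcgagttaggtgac
MCOLN1, chr19:7522568-7522630, plus strand: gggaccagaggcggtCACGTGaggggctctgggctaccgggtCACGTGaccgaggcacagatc
CTSA, chr20:45891278-45891330, plus strand: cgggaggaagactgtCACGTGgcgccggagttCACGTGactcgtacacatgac
GAA, chr17:80101490-80101570, plus strand: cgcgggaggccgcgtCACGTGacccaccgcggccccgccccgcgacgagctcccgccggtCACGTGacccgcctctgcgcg

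The LAMP1 promoter held 6 E-boxes, whose first letters lay 192, 176, 159, 142, 28 and 1 bases before the start. The 2 E-boxes of ATP6V0B lay 57 and 39 bases before the start. The other 5 members with an E-box, 1 each, were ATP6V0D1, ATP6V1G1, CD63, CTSD and NEU1. E-boxes were thus found for 3 of 5 membrane proteins, 4 of 9 lumen proteins and 3 of 9 pump subunits with an entry, and for none of the 3 factors or the 11 autophagy genes with an entry. TCATGTG, the M-box, was found in CD63, CTSA and GPNMB (8.11% of the members, 2.99% of all promoters, 1.46% of those of genes tested). TGATGNAA, an amino acid response element, was found in 0 of 37 (3.67% of all promoters, 1.53% of those of genes tested). These are matches of letters in 1 window per gene and do not show binding.

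The libraries were first checked for depth, target and cell identity. Estimated counts summed to between 3389897 and 3604835 per library. The smallest counts were not whole numbers. In shscramble replicate 1 ACP5 was at 0.9345 and ATP6V0A4 at 2.803, in shscramble replicate 2 ATP6V1B1 was at 0.8684, and in shMETTL1 replicate 1 ATP6V1C2 was at 1.36. The counts thus appear to have been scaled before deposit, by a factor that differed between libraries. The count-based tests below were run on these values, and no counting interval was drawn from the totals. METTL1 was lower in every shMETTL1 library, with 17.8 ± 3.62 FPKM (fragments scaled to transcript length and depth; SD, n = 3) in shscramble and 9.02 ± 1.30 FPKM in shMETTL1, the latter 50.7% of the former. By edgeR the METTL1 log2 fold change was -1.36 ± 0.36 (SE; adjusted p = 0.028), and an exact permutation test (two-sided) on FPKM gave p = 0.1, the smallest p that 3 libraries against 3 allow. All 9 markers of luminal prostate cells were detected, and their summed level was 2106 to 2187 FPKM in shscramble and 1669 to 1845 FPKM in shMETTL1, with KLK3, KLK2 and TMPRSS2 called lower by edgeR. The part of this shift in the results was not tested. Across all genes, shscramble replicate 2 correlated more closely with the 3 shMETTL1 libraries (r = 0.9457 to 0.9529 on log2 FPKM) than with the other shscramble libraries (0.9359 and 0.9449), so results are also given without it.

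Of the 47 members, 6 rose and none fell after METTL1 silencing. The test was the quasi-likelihood test of edgeR on the estimated counts, over all 11248 genes tested, with a call at a Benjamini-Hochberg adjusted p under 0.05. The 6 were GPNMB, LAMP1 and NPC1 in the membrane, ATP6AP1 and ATP6V0B in the pump, and MAP1LC3B, an ATG8 protein. They are 12.8% of the members, where 2.89% of all genes tested were called higher and 4.05% lower. The unadjusted p was under 0.05 for 11 of the 47 members with higher values (23.4%) and for 0 with lower values, against 10.9% and 12.1% of all genes. Positive log2 fold changes were found for 30 of 47 members (63.8%, against 50% of all genes), with a median of 0.12 and a range of -0.26 to 1.84, beside a median of -0.0001 over all genes. Most members therefore lay within a narrow band around 0, and a few stood above it. In bulk RNA, less RNA per cell and fewer cells of a kind cannot be told apart.

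**Figure D1:**
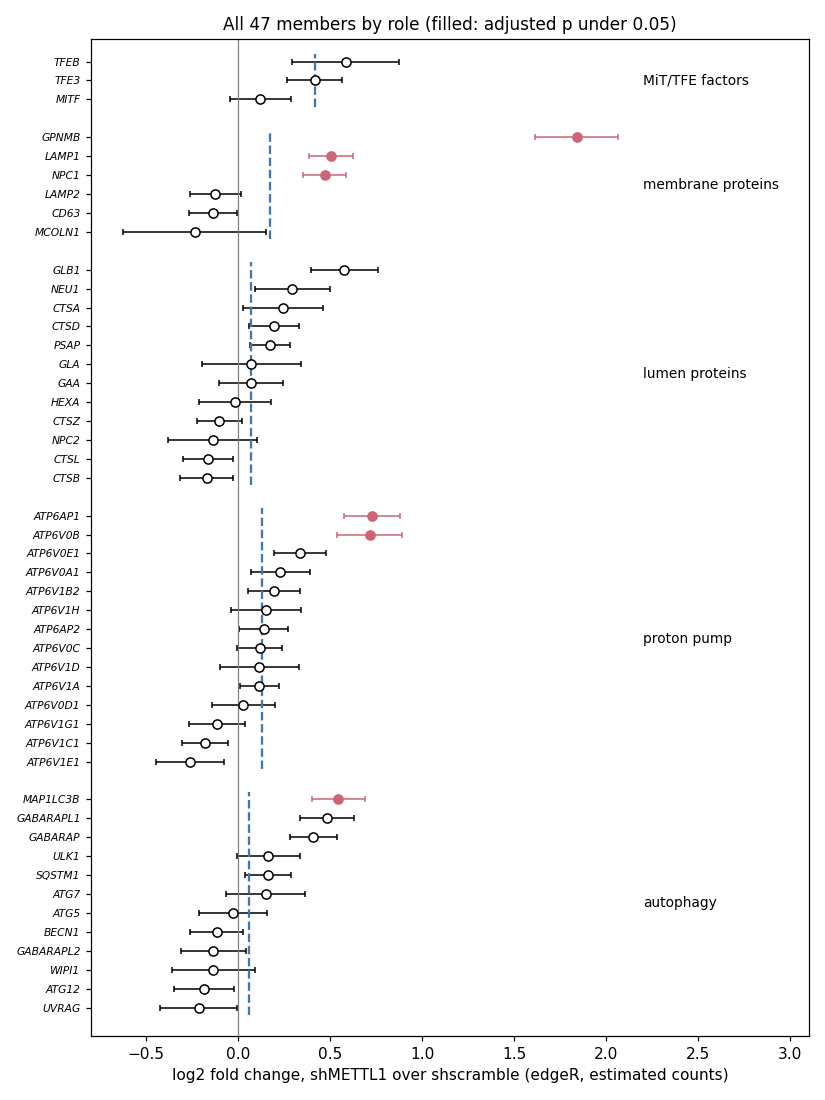
Log2 fold change of each of the 47 members (x axis, shMETTL1 over shscramble, edgeR on estimated counts), grouped by role and sorted within each role. Points are estimates and bars 1 SE (n = 3 libraries a group), filled points have an adjusted p under 0.05, and dashed lines mark the median of each role, from 0.06 in autophagy genes to 0.41 in the 3 factors. GPNMB at 1.84 lies apart from the other 5 called members, which lie between 0.47 and 0.72.

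The calls did not hold in the test on FPKM, in which measure and test differ together from the main one. With limma on log2(FPKM + 0.5), none of the 47 members passed an adjusted p under 0.05, where 0.123% of 12156 genes passed in either direction, while its unadjusted p was under 0.05 for 12 members with higher values and 0 with lower ones (7.37% of genes had higher values at that level). DESeq2 on the counts called the 6 members that edgeR called. The median log2 fold change of the members by limma was also 0.12. CPM is the count relative to the library total, which was adjusted by the TMM factors of edgeR. In CPM the 3 shMETTL1 libraries lay above all 3 shscramble libraries for 13 of the 47 members and below them for 0. Of the 11248 genes tested, 1451 (12.9%) lay above and 1512 (13.4%) below in this way. Those 13 were the 6 called members, TFEB, TFE3, GLB1, ATP6AP2, ATP6V1H, GABARAP and GABARAPL1. Relative to the plain totals, ATP6V1A was added above, and ATG12 and CTSZ lay below, for 14 and 2 members (29.8% and 4.26%, against 12.5% and 13.8% of all genes).

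The edgeR calls also moved with single libraries. Leaving out 1 library at a time left GPNMB called in all 6 edgeR fits, ATP6AP1 and LAMP1 in 3, NPC1 and MAP1LC3B in 2 and ATP6V0B in 1. Without shscramble replicate 2, 11 members were called higher, the 6 above with TFE3, GLB1, ATP6V0A1, ATP6V0E1 and GABARAP, and the median of the members was 0.21. In that fit 974 of 11371 genes tested were called higher, against 325 of 11248 with all 6 libraries, so the background rose as well. Without shscramble replicate 1 there were 5 calls, all but ATP6V0B. Without shMETTL1 replicate 3 there were 3 calls, GPNMB, ATP6AP1 and LAMP1. Without shscramble replicate 3, shMETTL1 replicate 1 or shMETTL1 replicate 2, GPNMB alone was called. Calls over all genes moved too, from 781 in all to between 299 and 466 in 5 of these fits and 2172 without shscramble replicate 2. Genes called higher numbered 122 to 220 in those 5 fits.

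The members' summed count made up 0.324%, 0.356% and 0.328% of the total in the 3 shscramble libraries. It made up 0.377%, 0.392% and 0.356% in the 3 shMETTL1 libraries. The lowest shMETTL1 library thus met the highest shscramble library, replicate 2. Mitochondrial genes held 12.6%, 11.2% and 11.6% of the counts in shscramble and 13.1%, 13% and 12.4% in shMETTL1. Without them the members' share was 0.371%, 0.401% and 0.371% in shscramble and 0.434%, 0.451% and 0.406% in shMETTL1, with a narrow gap between the groups. On the scale of log2(CPM + 1), centred on the 6 libraries, the mean over the members was -0.10, -0.04 and -0.11 in shscramble and 0.08, 0.15 and 0.03 in shMETTL1.

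**Figure D2:**
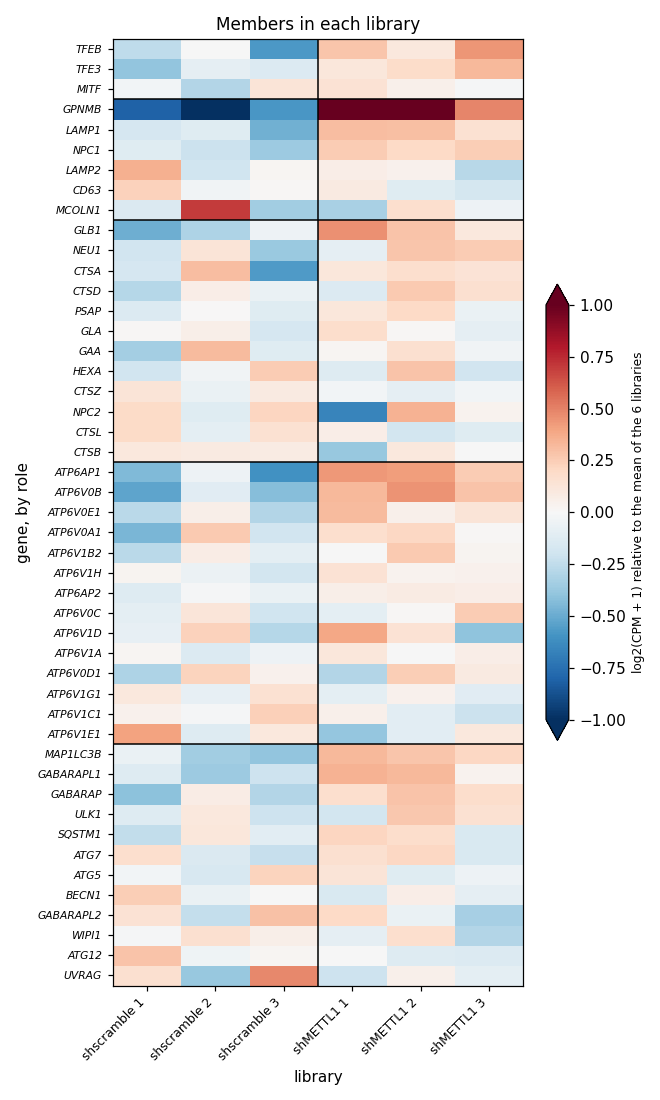
Level of each of the 47 members (rows, by role and by fold change within it) in each of the 6 libraries (columns), as log2(CPM + 1) relative to the mean of the 6 libraries, with colours saturated at -1 and 1. Red marks levels above a gene's own mean and blue levels below it, the vertical line parts the 3 shscramble from the 3 shMETTL1 libraries, and the rows of the 6 called members (GPNMB, LAMP1, NPC1, ATP6AP1, ATP6V0B, MAP1LC3B) are below their mean in every shscramble library and above it in every shMETTL1 library.

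The MiT/TFE factors were present at low to moderate levels, and none of the 3 was called (2.89% of all genes were called higher and 4.05% lower). TFE3, which drives lysosomal and stress genes, was at 9.95, 16.2 and 12.8 FPKM in shscramble and at 20.6, 18.0 and 21.9 FPKM in shMETTL1. Its groups did not overlap, with a log2 fold change of 0.41 ± 0.15 (SE) by edgeR and an unadjusted p that passed 0.05 but an adjusted p of 0.101. Without shscramble replicate 2 its log2 fold change was 0.47 and it was called. TFEB, the best known regulator of lysosome formation, was at 3.22, 6.51 and 3.22 FPKM in shscramble and at 8.58, 5.70 and 8.15 FPKM in shMETTL1. Here shscramble replicate 2 lay above shMETTL1 replicate 2 in FPKM, although the groups did not overlap in CPM, and the log2 fold change was 0.59 ± 0.29 (edgeR adjusted p = 0.238). MITF, the factor of pigment cells, was at 14.2, 13.3 and 17.1 FPKM in shscramble and at 17.2, 16.7 and 14.6 FPKM in shMETTL1, with groups that overlapped and a log2 fold change of 0.12 ± 0.16 (edgeR adjusted p = 0.714).

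Among membrane proteins, 3 of 6 rose (2.89% of all genes were called higher) and the other 3 did not pass the test. GPNMB, a glycoprotein of melanosomes and lysosomes that is also made by macrophages, lies at chr7:23235967-23275108 on the plus strand (GRCh38, as for all genes placed here). It was at 8.45, 6.16 and 9.69 FPKM in shscramble and at 25.6, 25.5 and 16.8 FPKM in shMETTL1. The lowest shMETTL1 library, replicate 3, still lay above every shscramble library. Its estimated counts were 44.9, 36.5 and 55.8 in shscramble and 194, 193 and 124 in shMETTL1. The log2 fold change by edgeR was 1.84 ± 0.22 (SE; adjusted p = 6.8e-05), a 3.58-fold rise, and by limma on FPKM 1.42 (adjusted p = 0.0643, and 5.3e-12 to 0.254 over all alternatives). None of the 7 blood cell markers measured passed a mean of 1 FPKM: 5 were at 0 in every library, and their sum was at most 0.128 FPKM in shscramble and 0.994 FPKM in shMETTL1. Of 6 melanocyte markers 4 were at 0 in every library and 1 passed a mean of 1 FPKM, with a highest mean of 2.31 FPKM. The sum of the 6 was 2.55 to 3.72 FPKM in shscramble and 0.938 to 2.35 FPKM in shMETTL1. This sum rests mainly on 1 gene at a low level, and its relation to GPNMB was not tested.

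LAMP1, a main glycoprotein of the lysosomal membrane (chr13:113297241-113323672, plus strand), rose 1.42-fold. Its level was 34.6, 42.9 and 28.2 FPKM in shscramble and 52.5, 56.1 and 46.3 FPKM in shMETTL1. Each shMETTL1 library lay above each shscramble library, although shscramble replicate 2 came within a few FPKM of shMETTL1 replicate 3. The log2 fold change was 0.50 ± 0.12 (SE; edgeR adjusted p = 0.0174), and by limma 0.56 (adjusted p = 0.237, and 0.00096 to 0.495 over all alternatives). This is the member with 6 E-boxes in its promoter.

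NPC1, which moves cholesterol out of lysosomes (chr18:23506184-23586898, minus strand), rose 1.38-fold. Its level was 32.9, 23.2 and 28.6 FPKM in shscramble and 35.5, 34.3 and 42.7 FPKM in shMETTL1. The groups did not overlap, but shscramble replicate 1 and shMETTL1 replicate 2 lay close together in FPKM. The log2 fold change was 0.47 ± 0.12 (SE; edgeR adjusted p = 0.0214), and by limma 0.41 (adjusted p = 0.35, and 0.0064 to 0.571 over all alternatives). The other membrane proteins, LAMP2, the tetraspanin CD63 and the calcium channel MCOLN1, had log2 fold changes of -0.12, -0.14 and -0.24 with overlapping groups. The sign of LAMP2 differed between measures, at 0.10 by limma on FPKM.

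**Figure D3:**
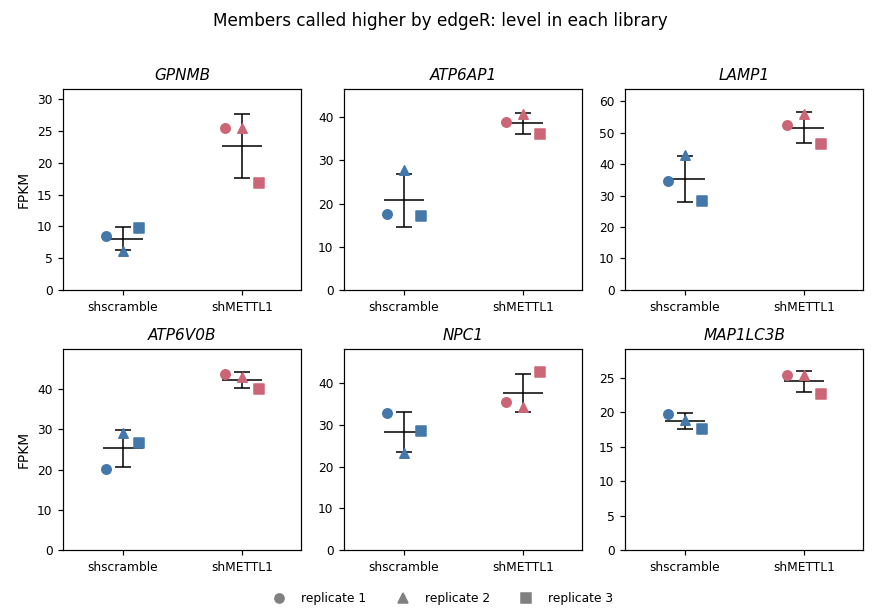
FPKM (y axis, from 0) of the 6 members called higher by edgeR in each library of shscramble (blue) and shMETTL1 (red). Symbols mark the replicate number, horizontal lines the mean and bars the SD (n = 3), and in each panel the lowest shMETTL1 library lies above the highest shscramble library, by a narrow margin in NPC1.

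None of the 12 lumen proteins was called (2.89% of all genes were called higher and 4.05% lower). Their log2 fold changes ran from -0.17 to 0.58 with a median of 0.07. They held levels from 9.41 FPKM (NEU1, a sialidase) to 152 FPKM (PSAP, the precursor of the saposins). GLB1, the lysosomal beta-galactosidase, was the only 1 of the 12 with an unadjusted p under 0.05 by edgeR (by limma that was CTSA), with 17.7 ± 3.24 FPKM (SD, n = 3) in shscramble and 20.4 ± 6.67 FPKM in shMETTL1. The measures differed for GLB1: the log2 fold change was 0.58 ± 0.18 by edgeR on counts (adjusted p = 0.0645) and 0.17 by limma on FPKM, and the groups overlapped in FPKM but not in CPM. The cathepsins, the main lysosomal proteases, lay on both sides of 0, with CTSB, CTSL and CTSZ at -0.17, -0.16 and -0.10 and CTSD and CTSA at 0.19 and 0.24. CTSA, the carboxypeptidase that protects NEU1 and beta-galactosidase, was at 0.75 by limma on FPKM, with groups that did not overlap in FPKM but did in CPM. Sequence shared with other genes covered 20.7% of the 75-base windows of CTSA transcripts (NEURL2 first) and 41.7% of those of CTSD. How far the CTSA and CTSD counts are affected is not known, as it was not checked whether the sharing genes were counted. The others were NEU1 at 0.29, PSAP at 0.17, the glycosidases GAA and GLA at 0.07 each, HEXA, a subunit of beta-hexosaminidase, at -0.02, and the sterol carrier NPC2 at -0.14.

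Of the 14 pump subunits, 2 rose (14.3%, against 2.89% of all genes) and none fell (4.05% of all genes), and 11 of 14 had a positive log2 fold change (50% of all genes), with a median of 0.13. ATP6AP1, an accessory subunit needed to assemble the pump (chrX:154428632-154436516, plus strand), was at 17.5, 27.9 and 17.0 FPKM in shscramble and at 39.0, 40.7 and 36.0 FPKM in shMETTL1. The highest shscramble library, replicate 2, stayed below all shMETTL1 libraries. The log2 fold change was 0.72 ± 0.15 (SE; edgeR adjusted p = 0.00693), a 1.65-fold rise, and by limma 0.91 (adjusted p = 0.12, and 4.3e-05 to 0.338 over all alternatives). The other accessory subunit, ATP6AP2, was at 27.0 ± 0.833 FPKM (SD, n = 3) in shscramble and 29.7 ± 1.16 FPKM in shMETTL1, with groups that did not overlap and an edgeR adjusted p of 0.582.

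ATP6V0B, a subunit of the proton-carrying ring of V0 (chr1:43974487-43978295, plus strand), rose 1.64-fold. Its level was 20.2, 28.97 and 26.6 FPKM in shscramble and 43.6, 42.8 and 39.9 FPKM in shMETTL1. The shMETTL1 libraries lay close together and all above the shscramble libraries. The log2 fold change was 0.72 ± 0.18 (SE; edgeR adjusted p = 0.0192), and by limma 0.74 (adjusted p = 0.126, and 0.0019 to 0.346 over all alternatives). With LAMP1 it was 1 of 2 called members with an E-box, and 4 of the 6 called members had none. All 5 V0 subunits had a positive log2 fold change, with a median of 0.23. ATP6V0E1 passed the unadjusted p only (46.6 ± 8.46 FPKM in shscramble, 65.0 ± 3.62 FPKM in shMETTL1, edgeR adjusted p = 0.167). ATP6V0C and ATP6V0D1 had log2 fold changes of 0.12 and 0.03. ATP6V0A1, at 0.23, varied most between shscramble libraries, with 24.2, 80.6 and 36.2 FPKM in shscramble and 63.1, 49.2 and 52.5 FPKM in shMETTL1.

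The 7 V1 subunits, which form the catalytic head and stalk, gave no call (2.89% of all genes were called higher and 4.05% lower). Their log2 fold changes ran from -0.26 (ATP6V1E1) to 0.19 (ATP6V1B2), with a median of 0.11. The catalytic subunit ATP6V1A was at 46.5 ± 10.8 FPKM in shscramble and 52.2 ± 9.31 FPKM in shMETTL1, with a log2 fold change of 0.11 ± 0.11 (SE). ATP6V1H was the only V1 subunit whose groups did not overlap in CPM (ATP6V1A joined it relative to the plain totals), with a log2 fold change of 0.15 ± 0.19. The others were ATP6V1D at 0.12, ATP6V1G1 at -0.12 and ATP6V1C1 at -0.18. Whether V0 and V1 differed was not tested. Over the 6 libraries the FPKM of the pump subunits, a level per transcript length, ran from 12.2 (ATP6V1H) to 207 (ATP6V0C, the main subunit of the ring, 62.4% of whose windows are shared with other genes).

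Of the 12 autophagy genes, 1 rose (8.33%, against 2.89% of all genes) and none fell (4.05% of all genes), and 6 of 12 had a positive log2 fold change, the share of all genes (50%), with a median of 0.06. MAP1LC3B, the ATG8 protein LC3B used to mark autophagosomes (chr16:87383995-87404779, plus strand), was at 19.7, 18.96 and 17.5 FPKM in shscramble and at 25.4, 25.4 and 22.6 FPKM in shMETTL1. Both groups were tight and did not overlap. The log2 fold change was 0.54 ± 0.14 (SE; edgeR adjusted p = 0.0272), a 1.46-fold rise, and by limma 0.38 (adjusted p = 0.342, and 0.012 to 0.586 over all alternatives). The near copy MAP1LC3B2 shares 4.18% of its windows and was not analysed here.

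The other ATG8 proteins were split. GABARAPL1 was at 25.9 ± 1.86 FPKM (SD, n = 3) in shscramble and 41.5 ± 1.71 FPKM in shMETTL1, and GABARAP at 182 ± 63.8 FPKM and 267 ± 10.6 FPKM. Both had groups that did not overlap and an unadjusted p under 0.05, and neither passed the edgeR adjusted p (0.0573 and 0.0612), although with the replicate number as a block both did (0.048 and 0.0237). GABARAP shares 45.1% of its windows with other genes, first a readthrough transcript. Whether those genes were counted in the deposited values was not checked, so how far the GABARAP counts are affected is not known. GABARAPL2 was at 51.5 ± 8.57 FPKM in shscramble and 48.1 ± 9.55 FPKM in shMETTL1, with a log2 fold change of -0.14.

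SQSTM1, the cargo receptor p62 that is itself degraded by autophagy, was at 72.0, 110 and 80.5 FPKM in shscramble and at 122.8, 112.3 and 83.1 FPKM in shMETTL1. Its groups overlapped, with shMETTL1 replicate 3 near shscramble replicate 3, and the log2 fold change was 0.16 ± 0.13 (SE; edgeR adjusted p = 0.483). Of its windows 18.4% are shared with other genes, mostly MRNIP. The initiating kinase ULK1, the phosphoinositide-binding WIPI1, the conjugation genes ATG5, ATG7 and ATG12, and BECN1 and UVRAG of the lipid kinase complex had log2 fold changes between -0.22 and 0.16, none of them with an unadjusted p under 0.05. Only ULK1 (0.16) and ATG7 (0.15) of these 7 were above 0.

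**Figure D4:**
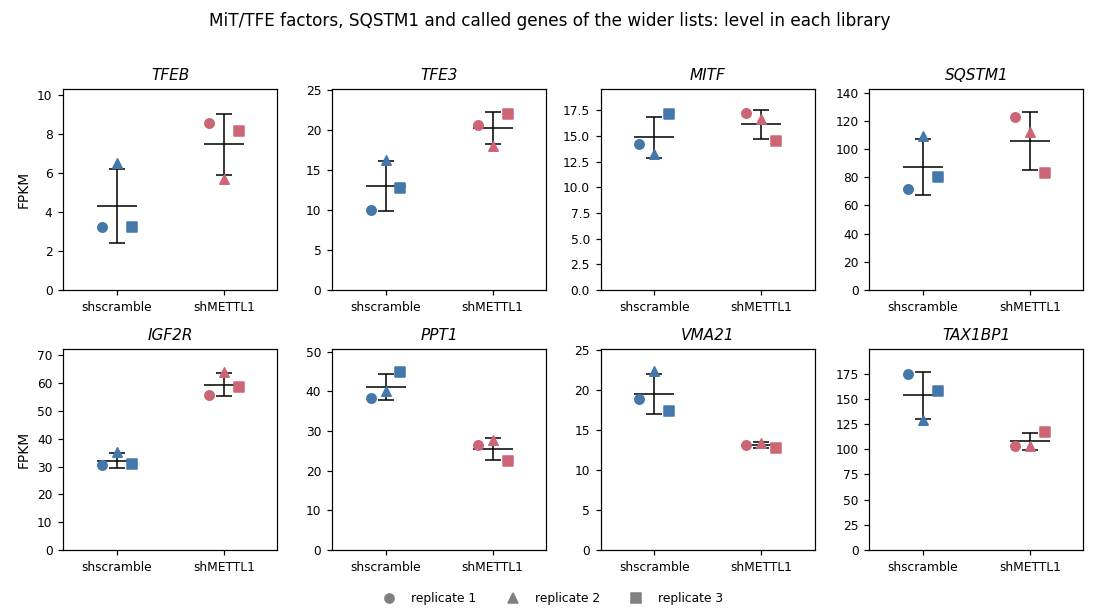
FPKM (y axis, from 0) in each library for the 3 MiT/TFE factors and SQSTM1 (top) and the 4 genes of the wider lists called by edgeR (bottom), shscramble in blue and shMETTL1 in red. Symbols mark the replicate number, horizontal lines the mean and bars the SD (n = 3). The groups overlap in TFEB, MITF and SQSTM1 and not in TFE3, and among the wider lists IGF2R lies higher and PPT1, VMA21 and TAX1BP1 lie lower in shMETTL1.

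Further genes of the same systems, 142 in 7 lists of which 126 were tested, gave 1 call higher (0.794%, against 2.89% of all genes) and 3 lower (2.38%, against 4.05%). The unadjusted p was under 0.05 for 12 with higher and 12 with lower values (9.52% each, against 10.9% and 12.1%), and the median log2 fold change was 0.04. IGF2R, the mannose 6-phosphate receptor that sorts hydrolases to lysosomes (chr6:159969099-160113507), was at 30.4, 35.3 and 30.8 FPKM in shscramble and at 55.8, 63.8 and 58.7 FPKM in shMETTL1. The groups were far apart, with a log2 fold change of 0.81 ± 0.10 (SE; edgeR adjusted p = 0.0001) and a 1.75-fold rise. It was called in all 6 edgeR fits that left out a library, and in 1 of 6 limma fits, without shscramble replicate 2.

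PPT1, a lysosomal thioesterase that removes palmitate from proteins (chr1:40071461-40097727), fell from 38.4, 40.1 and 44.9 FPKM in shscramble to 26.5, 27.8 and 22.4 FPKM in shMETTL1. Its log2 fold change was -0.67 ± 0.13 (SE; edgeR adjusted p = 0.00371), and 18.1% of its windows are shared with CAP1. VMA21, an assembly factor of the V0 sector (chrX:151396515-151409364), fell from 18.8, 22.3 and 17.3 FPKM to 13.2, 13.4 and 12.7 FPKM, a log2 fold change of -0.62 ± 0.13 (edgeR adjusted p = 0.00503). VMA21 thus fell where the accessory subunit ATP6AP1 and the ring subunit ATP6V0B rose. TMEM199 and CCDC115, also assembly factors of the pump, had log2 fold changes of 0.46 and 0.50 without a call (edgeR adjusted p = 0.1985 and 0.302). Of the 13 further pump genes tested, 9 had positive and 4 negative log2 fold changes. TAX1BP1, an autophagy receptor for ubiquitin-marked cargo (chr7:27739331-27844564), fell from 175, 129 and 158 FPKM to 103, 103 and 117 FPKM, a log2 fold change of -0.57 ± 0.13 (edgeR adjusted p = 0.0114). PPT1 and VMA21 were called in all 6 edgeR fits that left out a library and TAX1BP1 in 2. Limma on FPKM with all 6 libraries called none of these genes or IGF2R, and with 1 library left out it called none of PPT1, VMA21 and TAX1BP1.

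By list, the 13 further pump genes tested gave 0 calls higher and 1 lower (VMA21), with a median log2 fold change of 0.11 and, at an unadjusted p, 2 higher and 1 lower. The 34 further lumen proteins gave 0 and 1 (PPT1), with a median of 0.03 and, at an unadjusted p, 5 higher and 2 lower. The 22 further membrane proteins gave no call, with a median of 0.08 and 2 in each direction at an unadjusted p. The 9 genes of hydrolase sorting gave 1 higher (IGF2R) and 0 lower, with a median of -0.03 and, at an unadjusted p, 1 higher and 3 lower. The 29 further autophagy genes gave 0 and 1 (TAX1BP1), with a median of 0.04 and, at an unadjusted p, again 1 higher and 3 lower. The 12 genes of autophagosome fusion and the 7 regulators of TFEB gave no call, with medians of -0.13 and -0.04 and, at an unadjusted p, 0 higher and 1 lower, and 1 higher and 0 lower.

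The counts and FPKM values of a gene are 2 deposited measures, and for some members their ratio differed between libraries. For some genes the ratio of count to FPKM was nearly the same in each library, such as VMA21 (highest over lowest 1.006). The highest ratio over the lowest among the 6 libraries had a median of 1.26 over the members, from 1.02 to 2.40 (MCOLN1), and passed 1.5 in 14 of 47. The median over all genes above 1 FPKM in every library was 1.34. Among the called members the ratio varied most for NPC1 (1.49) and GPNMB (1.43) and least for LAMP1 (1.11). For GPNMB the count per FPKM separated the groups, at 5.308, 5.924 and 5.762 in shscramble and 7.602, 7.593 and 7.392 in shMETTL1. It was also higher in every shMETTL1 library for MAP1LC3B (9.419, 9.024 and 8.922 against 10.6, 10.41 and 10.79). For ATP6AP1 it was lower in every shMETTL1 library, and for LAMP1, NPC1 and ATP6V0B the groups overlapped. The cause was not tested.

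**Figure D5:**
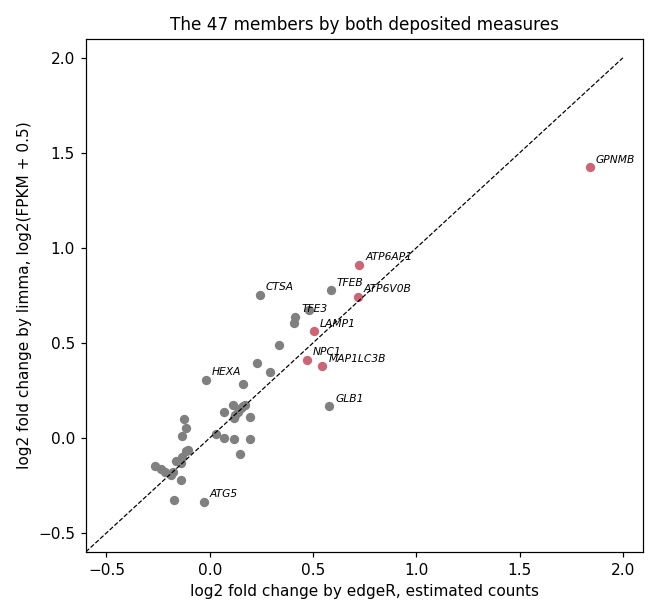
Log2 fold change, shMETTL1 over shscramble, of each of the 47 members by edgeR on estimated counts (x axis) and by limma on log2(FPKM + 0.5) (y axis), where the dashed line marks equal values. Red points are the 6 members called by edgeR, labels mark these, TFEB, TFE3 and members more than 0.25 apart, and GPNMB lies below the line at 1.84 and 1.42 while CTSA lies above it at 0.24 and 0.75.

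Members with and without an E-box had almost the same median. The 10 members with CACGTG in the promoter window had a median log2 fold change of 0.13, from -0.24 to 0.72, and the 27 without had 0.14, from -0.26 to 1.84. Of the 5 members printed above, LAMP1 and ATP6V0B rose, and CTSA, GAA and MCOLN1 had log2 fold changes of 0.24, 0.07 and -0.24 and did not pass the test. No test was run on this split.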

How the data were processed

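RNA sequencing libraries of LNCaP-AI cells, 3 of shMETTL1 and 3 of shscramble, were analysed as deposited. The authors deposited an FPKM and an estimated count for every gene in each library. Named in the submitters' processing notes, without role or order, are HISAT2 2.0.4, cutadapt 1.9.3, Cuffdiff, Cufflinks and hg19. The tables held Ensembl identifiers, of which 95.7% were paired with symbols.

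The estimated counts deposited by the authors were rounded to integers and analysed in edgeR 4.0.16 (R 4.3.3; quasi-likelihood, robust, TMM factors, filterByExpr; 11248 genes). Limma 3.58.1 (trend, robust) on log2(FPKM + 0.5), for the 12156 genes with a mean of at least 0.5 FPKM, and DESeq2 1.42.0 were alternatives, with other scaling, filters, pseudocounts, a replicate block and each library left out. P-values were two-sided, Benjamini-Hochberg adjusted over all genes tested, and measure the spread between these libraries, which may be technical. No test was run over the members as a set. The scripts were checked on simulated data.

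The members and lists were chosen with earlier results of these data known. Values per library are given for called members and for TFEB, TFE3, MITF, LAMP1, SQSTM1 and MAP1LC3B, means with SD for members with an unadjusted p under 0.05 (for ATP6AP2, ATP6V1A and GABARAPL2, and per library for ATP6V0A1, chosen after their values were seen), other members by role, and called genes of the wider lists. TMEM199 and CCDC115 of the wider lists were named after their values were seen. Positions are those of GENCODE on GRCh38, matched by identifier, and not the build of the deposited tables. Shared sequence is the share of a gene's 75-base transcript windows found in transcripts of another gene.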

Additional observations from a re-analysis of the deposited data

How the results depend on the processing

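The 6 members called higher by edgeR were also called by DESeq2, with median-ratio scaling and with no scaling factors. Under no filter on low counts 9 were called higher, where 457 of 14908 genes were, and 0 were called lower in every fit run. Limma on log2(FPKM + 0.5) called 0, as did limma with a pseudocount of 0.1 or of 1 and with no filter on FPKM. The study's thresholds (unadjusted p under 0.05, fold above 1.5) passed 3. The share of all genes that passed those thresholds was not computed, so these 3 cannot be set against it. With 1 library left out, calls ran from 0 to 11 over edgeR and limma (limma refits were chosen after seeing the data; they called 2, ATP6AP1 and GABARAP, without shscramble replicate 2 and 0 otherwise), and the members' median log2 fold change from 0.073 to 0.207, the latter by edgeR without shscramble replicate 2. The METTL1 log2 fold change was no longer past the threshold by limma (-0.93, also with no filter on FPKM, -0.96 with a pseudocount of 0.1 and -0.90 with 1) and ran from -1.72 to -0.80 with 1 library left out, past it by edgeR in 3 of 6 fits. GLB1 ran from -0.069, its sign turned by limma without shMETTL1 replicate 1, to 0.71. The cause was not tested.

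With the replicate number as a block (replicate block), edgeR called 8 members higher, adding GABARAP and GABARAPL1, 0 lower, and 1068 genes in all against 781 (450 against 325 higher). The median of the members was then 0.13 and METTL1 -1.40. Deviations of same-numbered libraries correlated at 0.002, 0.053 and -0.024, and those of other-numbered libraries at -0.053 to 0.048. No pairing by number was thus seen in this measure, which cannot show that there was none. Over the 18 named genes, 246 alternative values kept direction and side of the threshold, 121 lost the call, 10 gained it and 1 turned sign. The 246 include uncalled genes that stayed uncalled, such as TFEB, MITF and SQSTM1 in all 21 values each. All 121 losses fell on called genes, from IGF2R (12 kept, 9 lost) to ATP6V0B (6 kept, 15 lost), so the total overstates how firm the calls were. The counts appear scaled by library, so the similar totals do not show the depth behind each library. The smallest values differed, from 0.8684 in shscramble replicate 2 (ATP6V1B1) to 1.36 in shMETTL1 replicate 1 (ATP6V1C2), so depth may have differed too. The count-based tests took the scaled values as counts, and the effect of this was not tested. Low members such as GPNMB, TFEB and MCOLN1 rest on few counts.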
